A study of Drosophila melanogaster with 18 samples.

Results

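The comparison described here is the difference between the effects of 2 transcription factors, Zelda (Zld) and Twist (Twi), on the mRNA of Drosophila melanogaster S2 cells. For each gene, the Zld effect was the log2 ratio of the induced Zld line to wild type cells at the matching copper label. The Twi effect was the same ratio for the induced Twi line, and the difference was the Zld effect minus the Twi effect. It used 8 of the 18 libraries of the series, 2 in each of 4 groups. These were the S2-Zld line with CuSO4 labelled 1000 mM, S2-WT cells with 1000 µM CuSO4, the S2-Twi line with 40 µM CuSO4, and S2-WT cells with 40 µM CuSO4. The cells of all 8 libraries received CuSO4, the inducer of factor expression in the Zld and Twi lines, and were harvested 48 h later. The labels print the copper of the induced Zld line in mM and that of its wild type in µM, so lines were matched on the printed number and the unit remains unsettled. The labels do not say whether a line is 1 clone, or whether the 2 libraries of a group are separate cultures, so p-values measure only the spread between these libraries. Because each factor was induced at its own copper label, factor and copper label cannot be told apart in a direct comparison of the induced lines, and each line was therefore set against its own wild type.

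Zelda is a zinc finger pioneer factor: it binds its sites in closed chromatin of the very early fly embryo, makes them accessible, and is needed for the first wave of zygotic transcription. Twist is a basic helix-loop-helix factor that binds E-box sites, acts downstream of Dorsal on the ventral side of the embryo, and specifies the mesoderm, in part through the FGF receptor Heartless. S2 cells derive from late embryos, resemble plasmatocytes (the macrophage-like blood cells of the fly), and normally make little of either factor. The series title puts the question of how a factor's own properties and its cellular context shape what it does, and this comparison asks where the 2 factors moved the same mRNAs and where they moved different ones in 1 cell type.

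The 8 libraries held 13598386 to 28575923 counts, so that 3 counts, used as a floor, corresponded to 0.105 to 0.221 CPM (each gene's count scaled by the library total) in 1 library. The SD between the 2 libraries of a group, as a root mean square over well-measured genes on the log2 scale, was 0.105 in wild type at 1000 µM, 0.132 with Zld, 0.184 with Twi and 0.244 in wild type at 40 µM. The 2 wild types themselves stood far apart: 4136 of the 9216 genes tested differed between them, which is 44.9%. The plasmatocyte gene Hml, which encodes hemolectin, had 278 and 260 CPM in wild type at 1000 µM and 12.9 and 11.8 CPM in wild type at 40 µM. Of the 10 plasmatocyte markers examined, all were detected in all 8 libraries. Mhc, the muscle myosin heavy chain, had 0.0989 to 0.617 CPM over the 8 libraries. The lamellocyte gene atilla and the fat body gene Lsp2 had no counts in 6 libraries.

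Each line made its own factor. Levels of zld (X, 19766465 to 19783548 on dm6) were 5503 and 5211 CPM with Zld induced, 1.09 and 1.57 in its wild type, 0.727 and 1.03 where Twi was induced, and 0.105 and 0.297 in that line's wild type. Levels of twi (2R, 22985374 to 23048325) were 1595 and 1957 CPM with Twi induced, 0.245 and 0.346 in its wild type, 1.67 and 3.02 with Zld induced, and 0.182 and 0.241 in wild type at 1000 µM. The groups did not overlap for either gene. On the log2 scale, zld rose by 12.06 ± 0.19 (SE) in its own line and twi by 12.53 ± 0.25 in its own line (edgeR quasi-likelihood test, adjusted p = 6.25e-09 and 2.72e-08). Each factor gene was also called, at a far lower level, in the other line. The twi gene rose by 3.49 ± 0.47 with Zld (adjusted p = 0.00157), and 12.2% of its exonic bases lie in other genes. The zld gene rose by 2.20 ± 0.40 with Twi (adjusted p = 0.00713). That last call ended without replicate 2 of the induced Twi line, where the size of the change ran from 1.54 to 2.96 over the libraries left out. It also ended with all 18 libraries in the fit, and its sign turned when untreated wild type was the control (-3.29). Whether reads passed between libraries was not tested.

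The effects of Zld and Twi differed for 1408 of 9216 genes at an adjusted p under 0.05, which is 15.3% of the genes tested. The Zld effect was the higher for 763 genes (8.28%) and the lower for 645 genes (7%), and at least 2-fold so for 281 genes in each direction. On its own, the Zld effect was called for 2215 genes (24%), of which 1218 rose (13.2%) and 997 fell (10.8%). The Twi effect was called for 1362 genes (14.8%), of which 749 rose (8.13%) and 613 fell (6.65%). Among the 763 genes with the higher Zld effect, 452 rose with Zld and had no Twi call, 151 fell with Twi and had no Zld call, and 75 rose with Zld and fell with Twi. Among the 645 with the lower Zld effect, 251 rose with Twi alone, 221 fell with Zld alone, and 84 fell with Zld and rose with Twi. The sign of the difference was the same in all 16 combinations of 1 library per group for 763 of the 763 and 645 of the 645. These combinations reuse the libraries that gave the calls, so this agreement is no separate support for them. The count of 1408 depended on single libraries: it was 599 and 630 without replicate 2 and 1 of wild type at 1000 µM, 678 and 751 without replicate 1 and 2 of the induced Zld line, 889 without replicate 1 of the induced Twi line, and 2500 without replicate 1 of wild type at 40 µM. With any 1 of the 8 libraries left out, 528 of the 1408 genes remained called.

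The 2 effects share no library. Across the 9216 genes, which are not independent replicates, Pearson's r between them was 0.20 and Spearman's rho 0.17, and r was 0.19 without zld and twi.

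**Figure D1:**
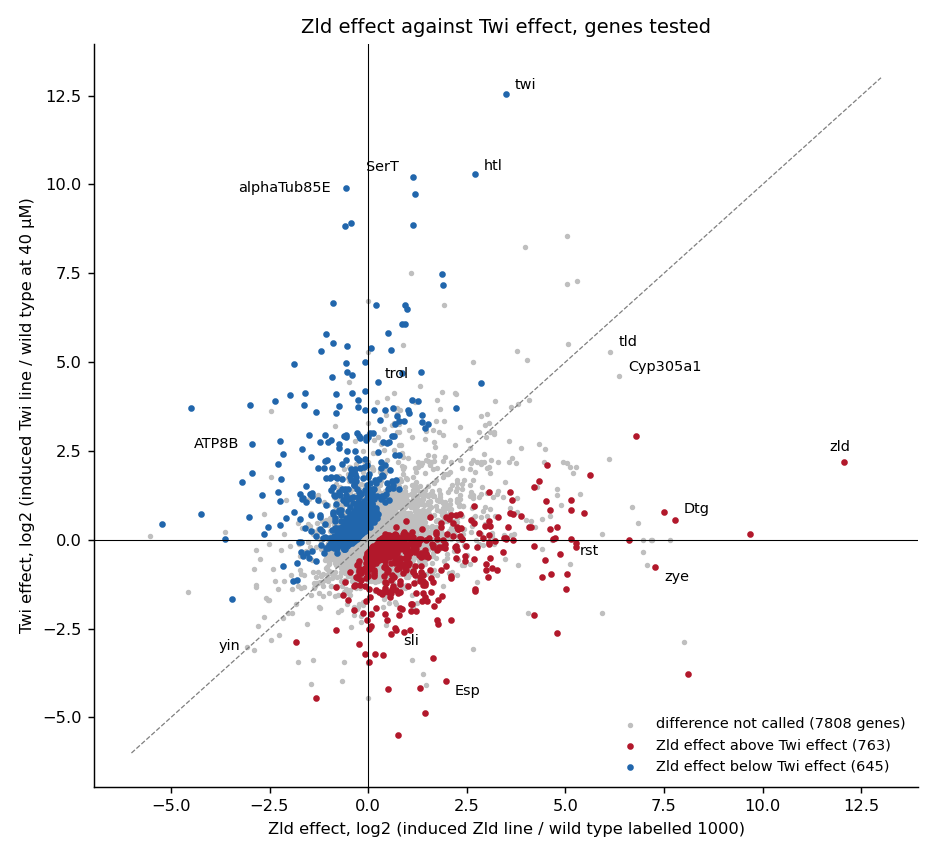
Zld effect (x axis, log2 of the induced Zld line over wild type labelled 1000) against Twi effect (y axis, log2 of the induced Twi line over wild type at 40 µM) for the 9216 genes tested. Red points are the 763 genes whose Zld effect was called higher than the Twi effect, blue points the 645 called lower, and grey points the others; the dashed line marks equal effects. Most called genes lie along 1 of the 2 axes, where only 1 factor moved the gene far from 0.

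The control chosen for each line bears on many of these calls. The 2 wild types themselves differed for 63.4% of the 763 genes and for 61.9% of the 645, against 44.9% of all genes tested. The same wild type libraries enter both comparisons, so these calls are not independent of each other. When the induced lines were compared directly, with untreated wild type as the shared control, the 1408 genes divided into 969 called in the same direction, 295 without a call and 144 called in the opposite direction. Called differences given with their values below are marked where that control turned their direction.

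The Zld line also differed from wild type before copper was added. With both lacking CuSO4, and in an edgeR fit that added these 4 libraries to the 8, the line was called higher for 488 genes (5.3% of genes tested) and lower for 366 (3.97%). Of the 1218 genes that rose in the Zld effect, 283 were already higher in the uninduced line (23.2%), and of the 997 that fell, 187 were already lower (18.8%). These make up 58% and 51.1% of the genes called in the uninduced line. Of the 763 genes with the higher Zld effect in the difference, 209 were already higher (27.4%), and of the 645 with the lower one, 119 were already lower (18.4%). Leaving out 1 of the 4 uninduced libraries gave 159 to 577 genes higher and 118 to 502 lower. The uninduced line held zld RNA at 214 and 306 CPM, so a difference between lines and a low level of the factor cannot be told apart here. The 18 libraries of the series include no Twi line without CuSO4. For the Twi effect, a difference between lines and an effect of the factor therefore cannot be told apart. Below, a gene raised or lowered by a factor is one whose effect, as defined above, was higher or lower.

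Of the 12 largest differences in favour of Zld, Or85d, Esp and phu were genes that Twi lowered and are described further on, and the first ones were genes that Zld raised from a few CPM or less and whose Twi effect was not called. The gene sisA (X, 11321579 to 11322357), an X-linked bZIP factor that helps count X chromosomes in the early embryo and is a known early Zelda target there, had 9.14 and 10.2 CPM in the induced Zld line. It had 0 and 0.0602 CPM in wild type at 1000 µM, no counts where Twi was induced, and 0.105 and 0.0495 in that line's wild type. As counts this was 287 against 1, a ratio of 319 with a 95% exact (Clopper-Pearson) interval of 56.7 to 12628 that covers counting error only, and the difference was called (adjusted p = 0.00283). The gene zye (3L, 20413604 to 20424309) had 543 and 508 CPM with Zld induced and 1.14 to 3.79 CPM in the other 6 libraries. Its difference was 8.04 ± 0.32 on the log2 scale (adjusted p = 7.77e-06). Dtg (3R, 12648058 to 12652910), named as a target of Dpp signalling, had 105 and 95.8 CPM with Zld, 0.243 and 0.722 in its wild type, 1.14 and 0.517 with Twi and 0.525 and 0.544 in the wild type of that line. The difference for Dtg was 7.21 ± 0.68 (adjusted p = 0.000357), and in these 3 genes the induced Zld libraries stood alone above all the others. Without CuSO4 the Zld line had means of 0.125 CPM of sisA, 3.23 of zye and 0.435 of Dtg, so the high levels were reached with copper, although zye was already called higher than in untreated wild type (0.671 CPM, adjusted p = 0.00101, edgeR).

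Phk-3, a pherokine, had 89.3 and 68.6 CPM with Zld induced and 0.245 to 0.779 CPM in the other 6 libraries, a difference of 6.72 ± 0.70 (adjusted p = 0.000502). Obp99a, an odorant-binding protein, had 129 and 156 CPM with Zld and 1.70 and 1.38 in its wild type, against 0.104 to 0.259 CPM in the 4 libraries at 40 µM (difference 6.61 ± 0.79, adjusted p = 0.00087). Jhbp2, a juvenile hormone binding protein, had 5.86 and 5.52 CPM with Zld and at most 0.495 CPM elsewhere (difference 6.4 ± 0.71, adjusted p = 0.000573). In these 3 genes the Twi effect was not called. Oatp33Ea, an organic anion transporter, rose by 4.73 ± 0.30 with Zld (adjusted p = 1.97e-05), from 0.911 and 0.542 CPM to 17.8 and 18.9. Its Twi effect was 0.05 ± 0.38, with 0.520 and 0.776 CPM in the induced Twi line. The uninduced Zld line already had a mean of 21.7 ± 2.43 CPM (SD, n = 2) against 0.367 in untreated wild type, a difference of 5.95 ± 0.29, so the level with copper was no higher than without it. The transmembrane receptor gene otk rose by 4.21 ± 0.23 with Zld (adjusted p = 1.03e-05), from 0.789 and 0.783 CPM to 13.6 and 14.0. Its Twi effect was -0.18 ± 0.32, with 0.416 and 0.431 CPM in the induced Twi line. Without CuSO4 the Zld line had a mean of 5.12 CPM and wild type 3.01. The difference was called for both, and each of the calls in this paragraph remained with any 1 library left out.

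**Figure D2:**
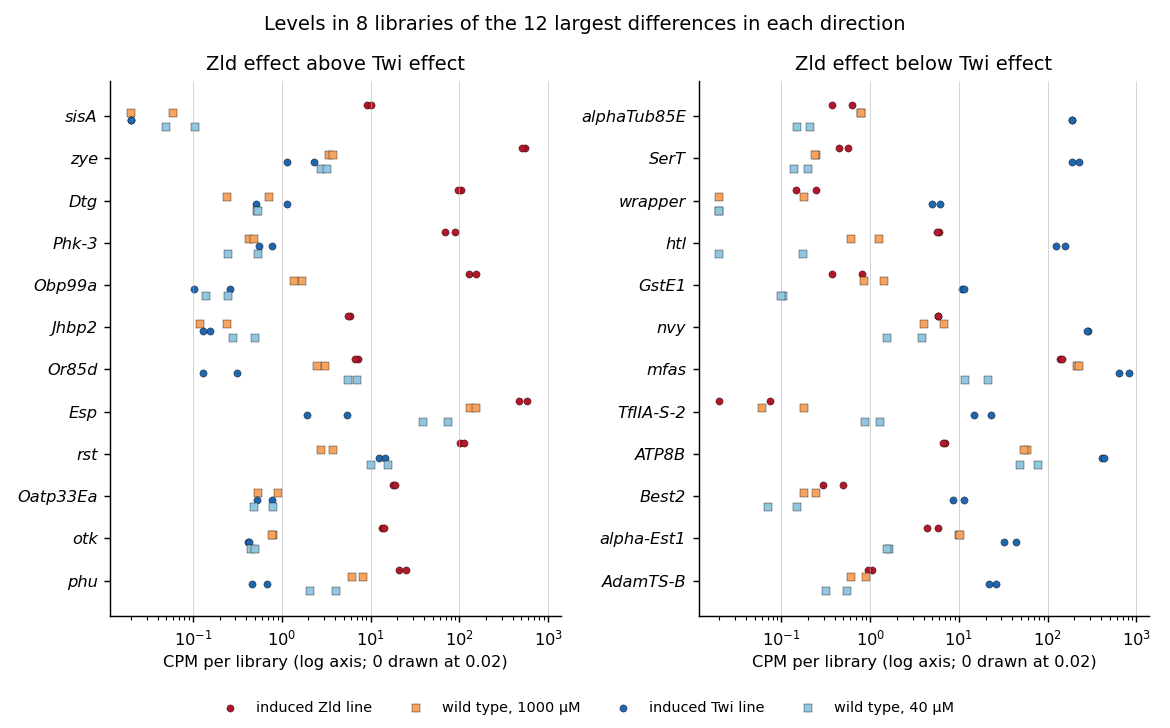
CPM (x axis, log scale, 0 drawn at 0.02) of the 12 genes with the largest called difference in each direction, 1 point per library and 2 libraries per group. In the left panel the induced Zld points lie to the right of the other groups, as for zye at 543 and 508 CPM, except for Or85d, where wild type at 40 µM overlaps them; in the right panel the induced Twi points do, as for alphaTub85E at 187 and 186 CPM.

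Of the 12 largest differences in favour of Twi, most were in genes that were low outside the induced Twi line, while mfas, ATP8B and alpha-Est1 had clear levels in other groups. The tubulin gene alphaTub85E (3R, 9731221 to 9733250) had 187 and 186 CPM with Twi induced, 0.210 and 0.148 in its wild type, 0.617 and 0.368 with Zld, and 0.789 and 0.783 in wild type at 1000 µM. The Twi effect was 9.90 ± 0.15, the Zld effect -0.55 ± 0.30, and the difference -10.45 ± 0.43 (adjusted p = 7.77e-06). SerT (2R, 24404595 to 24411074), the serotonin transporter, had 226 and 187 CPM with Twi and 0.140 to 0.556 CPM in the other 6 libraries, and its difference was -9.09 ± 0.85 (adjusted p = 0.000239). No other group reached 1 CPM in either gene. The FGF receptor gene htl (3R, 18045216 to 18052984), an early Twist target in the embryonic mesoderm, had 155 and 124 CPM with Twi, 0.175 and 0 in its wild type, 5.93 and 5.59 with Zld, and 0.607 and 1.26 in the wild type of that line. It rose with both factors, by 10.30 ± 0.36 with Twi and 2.70 ± 0.37 with Zld, and the difference was -7.60 ± 0.78 (adjusted p = 0.000674). That difference was -11.58 without replicate 1 of wild type at 40 µM, which left a control library with no counts.

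Several further genes rose with Twi and had no Zld call. The transcriptional corepressor gene nvy had 283 and 274 CPM with Twi, 3.81 and 1.53 in its wild type, and 4.09 to 6.86 CPM in the 4 libraries labelled 1000 (difference -6.41 ± 0.50, adjusted p = 0.000357). The glutathione transferase gene GstE1 had 10.9 and 11.4 CPM with Twi and at most 1.44 CPM elsewhere (difference -7.55 ± 0.62, adjusted p = 0.000108). The metalloprotease gene AdamTS-B had 26.3 and 21.9 CPM with Twi and at most 1.05 CPM elsewhere (difference -5.32 ± 0.48, adjusted p = 0.0002). Best2, a bestrophin, had 8.68 and 11.5 CPM with Twi and at most 0.494 CPM elsewhere (difference -5.51 ± 0.85, adjusted p = 0.00314). In each of these 4 genes the induced Twi line was above every other one of the 8 libraries. In libraries outside these 8, AdamTS-B had means of 4.04 CPM in untreated wild type and 5.16 in the uninduced Zld line. The 2 wild types of GstE1 differed by 3.36 on the log2 scale (1000 minus 40). Setting both lines against untreated wild type gave GstE1 a difference of -4.19. The gene mfas, which encodes a fasciclin-domain adhesion protein, also had wild types that were far apart. It had 816 and 638 CPM with Twi and 11.6 and 21.3 in its wild type, but 137 and 145 with Zld and 213 and 225 in wild type at 1000 µM. Its difference was -6.0 ± 0.37 (adjusted p = 0.00014), and setting both lines against untreated wild type gave -2.29.

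Several of the 12 genes had few counts in wild type. At 40 µM, GstE1 had 3 and 2 counts, Best2 2 and 3, SerT 4 and 4, and alphaTub85E 6 and 3. Of the 12, only wrapper and TfIIA-S-2 lost the call of their difference when single libraries were left out. The gene wrapper, an immunoglobulin-domain protein of midline glia, had 233 counts with Twi and none in wild type at 40 µM, which is at least 89.3-fold higher against 3 counts over the 2 wild type libraries. With Zld it had 6 counts against 3, and the difference was called (adjusted p = 0.0271). The call ended without either library of the induced Zld line, without replicate 1 of the induced Twi line, and without replicate 1 of wild type at 1000 µM, where the difference was -4.68. TfIIA-S-2, a TFIIA subunit paralog, rose by 4.12 ± 0.34 with Twi, from 0.875 and 1.29 CPM to 23.2 and 14.7 (adjusted p = 6.92e-05). With Zld it had 1 count against 4, and its difference lost its call (adjusted p = 0.0418 with all 8 libraries) without any 1 of the libraries of the induced Zld line or of either wild type, where the difference ran from -8.44 to -4.72.

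Genes that the factors moved in opposite directions were 75 that rose with Zld and fell with Twi (0.814% of genes tested) and 84 that fell with Zld and rose with Twi (0.911%). The 75 made up 6.16% of the genes that rose with Zld, while 6.65% of all genes tested fell with Twi. The 84 made up 8.43% of the genes that fell with Zld, while 8.13% of all genes tested rose with Twi. Both shares were thus near those of all genes tested. Most of the 75 and most of the 84 did not remain called in both effects when each library was left out in turn. The counts were 34 and 29 without replicate 2 of wild type at 1000 µM, and 177 and 172 without replicate 1 of wild type at 40 µM. The gene sli (2R, 15869495 to 15922118), the secreted guidance ligand of Robo receptors, had 1233 and 1349 CPM with Zld and 843 and 831 in its wild type, but 165 and 180 with Twi and 869 and 1120 in the wild type of that line. It rose by 0.71 ± 0.11 with Zld and fell by 2.55 ± 0.12 with Twi, a difference of 3.26 ± 0.16 (adjusted p = 1.41e-05). The monocarboxylate transporter gene out (X, 19310513 to 19322106) had 91.2 and 93.9 CPM with Zld, 47.1 and 46.9 in its wild type, 7.90 and 10.9 with Twi, and 53.1 and 54.8 in wild type at 40 µM. Its difference was 3.60 ± 0.16 (adjusted p = 7.77e-06). The integrin alpha subunit gene scb had 99.1 and 98.0 CPM with Zld, 56.8 and 57.6 in its wild type, 15.1 and 20.1 with Twi, and 64.0 and 68.7 in wild type at 40 µM (difference 2.81 ± 0.16, adjusted p = 1.77e-05). In these 3 genes the 2 wild types lay close together, and the Zld libraries were above both of them and the Twi libraries below both.

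The same orientation held for 3 genes with larger differences. Or85d, an odorant receptor gene, had 7.22 and 6.69 CPM with Zld, 3.04 and 2.47 in its wild type, 0.312 and 0.129 with Twi, and 5.63 and 6.97 in wild type at 40 µM. Its difference was 6.29 ± 0.44 (adjusted p = 5.71e-05), most of it from the Twi effect of -4.87 ± 0.35. Esp, a sulfate transporter family member, had 467 and 582 CPM with Zld, 131 and 153 in its wild type, 1.92 and 5.39 with Twi, and 74.9 and 39.4 in wild type at 40 µM. The difference for Esp was 5.94 ± 0.62 (adjusted p = 0.00263). Zld effects of these genes were less stable than their differences: that of Or85d, 1.43 ± 0.26, lost its call without replicate 2 of wild type at 1000 µM or replicate 1 of the induced Zld line. That of Esp, 1.97 ± 0.38, lost it without either library of wild type at 1000 µM, without replicate 2 of the induced Zld line, and without the filter on low counts. With a replicate block within each dose, both effects of Esp lost their calls, while its difference kept the call in every alternative. The gene phu fell by 2.36 ± 0.41 with Twi (adjusted p = 0.00573) and rose by 1.76 ± 0.27 with Zld (adjusted p = 0.00272), with a difference of 4.12 ± 0.49.

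In the other orientation, ATP8B (3R, 12068375 to 12090612), a phospholipid flippase, had 7.04 and 6.62 CPM with Zld and 57.7 and 54.1 in its wild type, but 404 and 432 with Twi and 49.3 and 77.7 in wild type at 40 µM. It fell by 2.94 ± 0.23 with Zld and rose by 2.69 ± 0.19 with Twi, a difference of -5.64 ± 0.30 (adjusted p = 5.7e-05). The 2 wild types overlapped, and the induced lines lay on either side of them. Agpat2, an acyltransferase of phospholipid synthesis, had 15.7 and 17.7 CPM with Zld, 41.6 and 46.2 in its wild type, 157 and 109 with Twi, and 12.2 and 9.20 in wild type at 40 µM (difference -4.89 ± 0.30, adjusted p = 6.97e-05). Pgant2, which adds the first sugar of mucin-type O-glycans, had 0.617 and 1.25 CPM with Zld, 5.16 and 7.28 in its wild type, 38.9 and 37.7 with Twi, and 18.6 and 12.8 in wild type at 40 µM (difference -3.92 ± 0.42, adjusted p = 0.000706). The uninduced Zld line already had a mean of 9.91 CPM of Agpat2 against 40.8 in untreated wild type, below its level with copper (difference -1.99 ± 0.22, adjusted p = 0.000408, edgeR). ATP8B was also called lower in the uninduced line, at 30.3 CPM against 52.4 (difference -0.71 ± 0.17, adjusted p = 0.0261, edgeR), a smaller change than its Zld effect. Pgant2 had 5.36 CPM there against 7.50 and was not called. For Agpat2 and Pgant2 the wild types differed by 1.98 and -1.39 on the log2 scale (1000 minus 40). The esterase gene alpha-Est1, the chloride channel gene ClC-a and vilya, a RING-domain gene of meiotic recombination, had differences of -5.49 ± 0.29, -3.79 ± 0.28 and -3.63 ± 0.46. Their differences remained called with any 1 library left out. The wild types were also far apart in alpha-Est1, at 10.1 and 10.2 CPM at 1000 µM against 1.61 and 1.53 at 40 µM. In ClC-a they had 49.2 and 52.4 CPM against 19.2 and 15.5. With untreated wild type as the control, the differences of alpha-Est1, ClC-a and vilya were -2.84, -2.29 and -3.90. The Zld effects, -0.92, -1.03 and -2.28, each lost the call without replicate 1 of the induced Zld line. That of alpha-Est1 also lost it without either library of wild type at 1000 µM, that of ClC-a without replicate 2 of the induced Zld line or of wild type at 1000 µM, while vilya was already at 0.410 CPM in the uninduced Zld line against 2.88 in untreated wild type. The Twi effect of vilya (1.35) lost the call without replicate 1 of the induced Twi line.

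**Figure D3:**
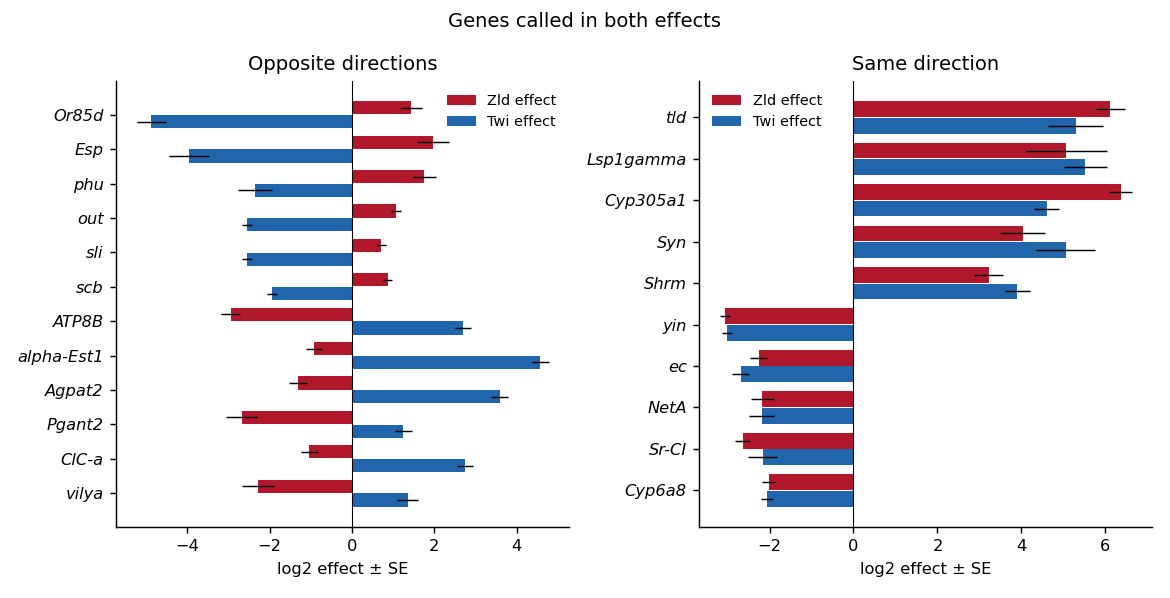
Zld effect (red) and Twi effect (blue), log2 with SE as error bars, for genes called in both effects in opposite directions (left, 12 genes) and in the same direction (right, 10 genes). In the left panel the bars of each gene point apart, from ATP8B at -2.94 and 2.69 to sli at 0.71 and -2.55; in the right panel they point the same way, with yin at -3.06 and -3.01.

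Genes called in both effects in the same direction were 176 that rose and 179 that fell. The 176 made up 14.4% of the genes that rose with Zld and 23.5% of those that rose with Twi, and the 179 made up 18% and 29.2% of the genes that fell. Of all genes tested, 8.13% rose with Twi and 13.2% with Zld, and 6.65% fell with Twi and 10.8% with Zld. For 42 of the 176 and 24 of the 179 the size of the change still differed. With any 1 library left out, 42 of the 176 and 42 of the 179 remained called in both effects. The neighbouring X-linked genes yin, an oligopeptide transporter, and ec were lowered by both factors. The gene yin had 26.7 and 24.8 CPM with Zld, 228 and 230 in its wild type, 63.3 and 72.2 with Twi, and 589 and 481 in wild type at 40 µM. Its effects were -3.06 ± 0.12 and -3.01 ± 0.11, and the 95% interval of their difference ran from -0.40 to 0.29. For ec the effects were -2.26 ± 0.21 and -2.69 ± 0.20, with an interval of -0.24 to 1.10. The uninduced Zld line was already lower than untreated wild type in yin (-1.32 ± 0.10) and ec (-1.39 ± 0.18), by less than with copper, and with untreated wild type as the control the uncalled difference of ec was -0.25. NetA, a secreted netrin, fell by 2.17 ± 0.27 with Zld and by 2.19 ± 0.30 with Twi (interval -0.74 to 0.77), with the uninduced Zld line at -1.82 ± 0.23 against untreated wild type, and the cytochrome P450 gene Cyp6a8 fell by 2.02 ± 0.16 and 2.06 ± 0.14 (interval -0.45 to 0.52). Sr-CI, a scavenger receptor of plasmatocytes, fell with both, by 2.64 ± 0.17 and 2.16 ± 0.35, although its wild types differed widely: 39.3 and 43.7 CPM at 1000 µM against 1.15 and 1.63 at 40 µM. With untreated wild type as the control, the differences of Sr-CI and Cyp6a8 were 4.39 and -0.86.

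The 5 genes raised most by both were Shrm, Cyp305a1, tld, Lsp1gamma and Syn. Shrm, an actin-binding regulator of apical constriction, rose from 2.31 and 1.87 CPM to 18.6 and 17.9 with Zld and from 1.75 and 4.25 to 41.7 and 46.1 with Twi. Its effects were 3.22 ± 0.34 and 3.90 ± 0.30, with an interval of the difference from -1.81 to 0.44. The cytochrome P450 gene Cyp305a1 rose by 6.36 ± 0.27 and 4.6 ± 0.29, from 0.546 and 0.542 CPM to 43.6 and 41.3 with Zld and from 0.175 and 0.594 to 8.78 and 8.92 with Twi. Its interval ran from 0.54 to 2.98 and the adjusted p was 0.0584. The metalloprotease gene tld, which frees Dpp from its inhibitor in the embryo, had 19.7 and 20.7 CPM with Zld against 0.364 and 0.241, and 1.30 and 0.862 with Twi against 0 and 0.0495. In counts the Twi line had 45 against 1, a ratio of 51.7 (interval 8.82 to 2088, counting error only). The larval storage protein gene Lsp1gamma had 64 counts against 2 with Zld, a ratio of 35.5 (9.44 to 300), and rose by 5.52 ± 0.51 with Twi. Its Zld effect was not called without replicate 2 of wild type at 1000 µM and was 8.42 without replicate 1 of that group. The synapsin gene Syn had 98 counts against 3 with Twi, a ratio of 37.5 (12.5 to 185), and rose by 4.03 ± 0.54 with Zld. Its Twi effect was 8.45 without replicate 2 of wild type at 40 µM, and its difference turned sign with untreated wild type as the control (1.48).

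Among 24 gene lists, that of cytosolic ribosomal proteins had the largest share of members called. Of 92 genes with such symbols, 86 were tested, and 75 of them had a higher Zld effect than Twi effect and 0 a lower one (background 8.28% and 7%). The Zld effect was called higher for 78 and lower for 0, with a median of 0.42 on the log2 scale. The Twi effect was called higher for 1 and lower for 3, with a median of -0.09. Over all genes tested the median effects were 0.01 and -0.01. The Zld effect was above 0 for 84 of the 86 and the Twi effect for 12. RpS27 had 1915 and 1926 CPM with Zld, 1244 and 1269 in its wild type, 1103 and 1278 with Twi, and 1254 and 1231 in wild type at 40 µM. RpL21 had 4703 and 4642 CPM with Zld, 3233 and 3166 in its wild type, 3045 and 3278 with Twi, and 3177 and 3413 in wild type at 40 µM. In both genes the 3 other groups lay together and the Zld libraries above them, and the differences were 0.79 ± 0.10 and 0.72 ± 0.09 (adjusted p = 0.00114 and 0.00087). RpS16 differed by 0.71 ± 0.08 (adjusted p = 0.000561). Part of this was present without CuSO4. The uninduced Zld line had means of 1844 CPM of RpS27, 4412 of RpL21 and 1855 of RpS16, against 1401, 3738 and 1538 in untreated wild type, and all 3 differences were called (0.48, 0.32 and 0.35). Over the 86 genes the uninduced line was higher by a median of 0.19, with 20 called higher and 0 lower, where the range on leaving out 1 of its 4 libraries was 5 to 44. The changes were small, and the count of 75 was 36 and 42 without replicate 2 and 1 of wild type at 1000 µM and 42 and 51 without replicate 1 and 2 of the induced Zld line, with 33 genes called in all 8 such fits. With DESeq2 the count was 78. Some ribosomal proteins have near-identical gene copies whose reads cannot always be told apart. Among genes with a paralog in the list, RpS19b rose by 1.07 ± 0.19 with Zld. Its Zld effect and its difference each lost the call in some of the fits with 1 library left out. RpS10a rose by 1.37 with Twi, and its difference was not called. Its means without CuSO4 were 1.30 CPM in the Zld line and 2.78 in wild type. In bulk RNA, fewer cells of a type and less RNA per cell cannot be told apart.

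**Figure D4:**
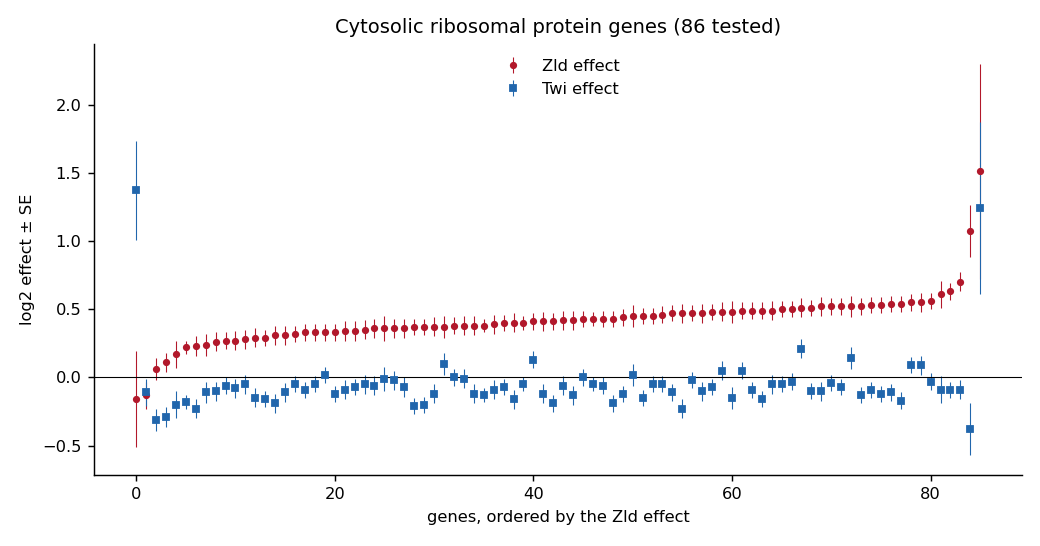
Zld effect (red circles) and Twi effect (blue squares), log2 with SE as error bars, of the 86 cytosolic ribosomal protein genes tested, ordered along the x axis by the Zld effect. The red points lie above 0 for 84 genes, with a median of 0.42, whereas the blue points lie near 0, with a median of -0.09; RpS10a, at the far left, is the gene whose Twi effect was called higher.

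The counts of members called in the other 23 lists were between 0 and 10 per list, and these lists were written with earlier results of the same data known. Each count of members called in the difference below is to be set beside the share over all genes tested, 8.28% higher and 7% lower. Several of these counts, such as those of the oxidative stress and metal response lists, are near that share. Where edgeR called 0 members of a list in a direction of the difference, 0 or 1 passed an unadjusted p under 0.05 and DESeq2 called 0, except 1 with the higher Zld effect in the neuroectoderm list. Where members called in the difference are named below with values, the call remained with any 1 of the 8 libraries left out, unless stated.

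**Figure D5:**
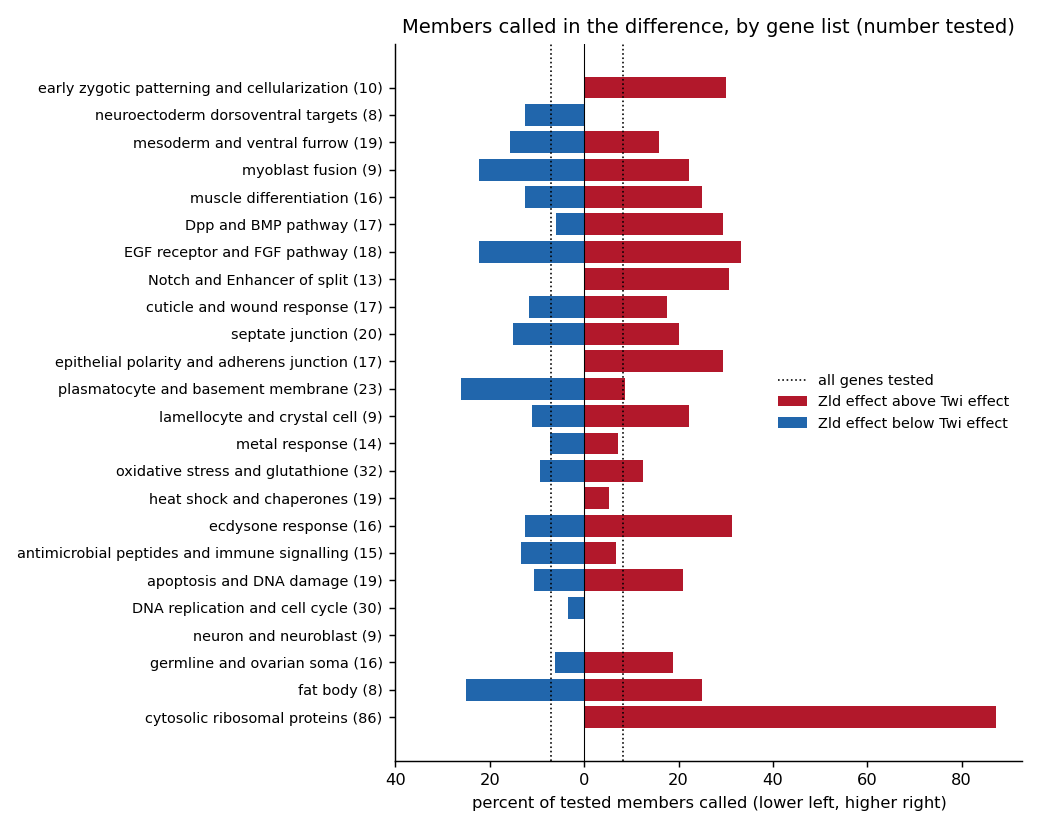
Percent of the tested members of each of the 24 gene lists (number tested in parentheses) whose Zld effect was called higher (red, to the right) or lower (blue, to the left) than the Twi effect. The dotted lines mark all genes tested, 8.28% higher and 7% lower; cytosolic ribosomal proteins reach furthest to the right with 75 of 86, and the plasmatocyte and basement membrane list furthest to the left with 6 of 23.

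Of 19 mesoderm and ventral furrow genes tested, the difference was higher for 3 and lower for 3. The lower ones that remained were htl, described above, and if (X, 16752189 to 16783434), the integrin alpha subunit of muscle attachment. The gene if had 37.6 and 30.8 CPM with Twi, 1.75 and 0.841 in its wild type, 4.32 and 5.88 with Zld, and 5.95 and 8.43 in wild type at 1000 µM. Its difference was -5.04 ± 0.42 (adjusted p = 0.0002), and Twi alone raised it. T48, which with fog drives apical constriction in the ventral furrow, rose with both factors. It had 33.0 and 31.8 CPM with Zld against 5.77 and 6.20, and 54.0 and 51.6 with Twi against 5.74 and 9.40, and the difference of -0.28 ± 0.27 was not called (adjusted p = 0.542). The textbook Twist target sna stayed under the filter on low counts, with 0 and 0.0431 CPM when Twi was induced, and Mef2, the myogenic factor, had an uncalled difference of 0.16. The RNA-binding factor gene how rose with both factors, by 1.12 ± 0.08 with Twi and 0.52 ± 0.08 with Zld. Without CuSO4 the Zld line was already higher in how than untreated wild type, by 0.56 ± 0.1. The difference of how, -0.60 (adjusted p = 0.00957), ended in some of the fits with 1 library left out, as did those of atos, fog and zfh1.

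Of 9 myoblast fusion genes tested, the difference was higher for 2 and lower for 2. The founder cell receptor gene rst (X, 2950399 to 2973834) had 101 and 114 CPM with Zld, 2.79 and 3.73 in its wild type, 12.3 and 14.4 with Twi, and 10.1 and 15.9 in wild type at 40 µM. It rose by 5.13 ± 0.24 with Zld and moved by 0.03 ± 0.20 with Twi, a difference of 5.10 ± 0.32 (adjusted p = 6.63e-05). Without CuSO4, rst was already higher in the Zld line, at a mean of 9.25 CPM against 3.77 in untreated wild type, far below its level with copper. Its paralog kirre, whose annotated span on the X includes rst, had 18.8 and 15.2 CPM with Twi and 0.980 and 1.93 in its wild type, but 1.30 and 1.76 with Zld and 0.607 and 0.963 in wild type at 1000 µM. Twi raised kirre by 3.56 ± 0.31 (adjusted p = 8.66e-05). The difference of -2.52 ± 0.55 (adjusted p = 0.0169) ended without replicate 2 of wild type at 1000 µM or replicate 1 of the induced Zld line. The fusion gene blow, which acts on actin remodelling, had a difference of 1.24 ± 0.10 (adjusted p = 9.55e-05), with 207 and 202 CPM with Zld against 148 and 140 and 95.2 and 102 with Twi against 147 and 156. The fusion scaffold gene rols had a difference of -1.73 ± 0.24 (adjusted p = 0.00199), which turned to 0.48 with untreated wild type as the control. The uninduced Zld line already had a mean of 9.25 CPM of rols against 17.7 in untreated wild type.

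Muscle differentiation genes gave 4 higher and 2 lower of 16 tested. The muscle actin gene Act87E had 19.0 and 12.2 CPM with Twi, 0.910 and 0.841 in its wild type, 1.36 and 1.03 with Zld, and 2.31 and 2.23 in wild type at 1000 µM. Its difference was -4.93 ± 0.44 (adjusted p = 0.000177), with only the Twi libraries high. The 3 remaining calls went the other way at smaller size. The titin-related gene sls differed by 1.71 ± 0.21 (adjusted p = 0.00106), the Z-disc gene Zasp52 by 1.16 ± 0.11 (adjusted p = 0.000222), and Mf, a thick filament protein, by 1.15 ± 0.15 (adjusted p = 0.00117). For Mf the Zld libraries rose, from 221 and 235 CPM to 447 and 432 (343 without CuSO4, against 196 in untreated wild type), whereas for Zasp52 the Twi libraries fell, from 196 and 202 to 101 and 99.7.

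Among signalling pathways, 5 of 17 tested Dpp and BMP genes had the higher Zld effect and 1 the lower. Dtg, described above, and tkv remained. The Dpp receptor gene tkv had 44.6 and 45.2 CPM with Zld against 26.0 and 27.2, and 33.7 and 33.7 with Twi against 32.1 and 39.0 (difference 0.95 ± 0.14, adjusted p = 0.00271), and the uninduced Zld line already had 45.1 CPM. The ligand gene dpp rose by 3.60 with Zld (adjusted p = 0.00715), from 0.364 and 0.542 CPM to 5.93 and 4.49, but its difference from the Twi effect was not called (adjusted p = 0.158). The protease gene tok, a paralog of tld beside it on 3R, rose with both, by 2.87 ± 0.23 and 4.41 ± 0.27. Its difference of -1.54 (adjusted p = 0.0291) ended in 5 of 8 fits with 1 library left out and turned to 0.89 with untreated wild type as the control.

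EGF receptor and FGF genes gave 6 higher and 4 lower of 18 tested, of which htl and pyr remained. The gene pyr (2R, 11712263 to 11726345), an FGF8-like ligand of Heartless, had 43.1 and 51.9 CPM with Twi against 17.2 and 24.6, and 3.83 and 2.28 with Zld against 10.4 and 10.3. It rose by 1.17 ± 0.20 with Twi and fell by 1.65 ± 0.28 with Zld, a difference of -2.81 ± 0.34 (adjusted p = 0.00126). Both htl and pyr had the higher effect with Twi. The FGF receptor gene btl went the other way, with a difference of 2.20 (adjusted p = 0.0423, edgeR). That call did not remain and was also lost with DESeq2. Egfr rose by 2.68 ± 0.28 with Zld, from 3.76 and 2.59 CPM to 20 and 18.5, but its difference of 1.74 (adjusted p = 0.0413) was called in only 1 of 8 fits with 1 library left out. The feedback inhibitor gene aos fell by 1.60 with Twi, where its wild type libraries were far apart at 84.0 and 157 CPM, and its difference did not remain.

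Notch and Enhancer of split genes gave 4 higher and 0 lower of 13 tested, and 2 remained. The Notch target E(spl)mbeta-HLH had 56.1 and 57.3 CPM with Zld against 45.7 and 46.4, and 11.8 and 11.5 with Twi against 25.7 and 20.9 (difference 1.42 ± 0.15, adjusted p = 0.000422). E(spl)mgamma-HLH had 2.16 and 2.43 CPM with Zld against 0.789 and 0.542, and 0.156 and 0.215 with Twi against 0.665 and 0.445 (difference 3.45 ± 0.61, adjusted p = 0.00624). The levels of the 2 basic helix-loop-helix repressor genes were thus lowest with Twi and highest with Zld. The Twi effect of E(spl)mgamma-HLH (-1.59, with 3 and 5 counts in the induced Twi line) was not called (adjusted p = 0.0622, edgeR). The Zld effects, 0.39 for E(spl)mbeta-HLH and 1.86 for E(spl)mgamma-HLH, each lost the call in some of the fits with 1 library left out. That of E(spl)mbeta-HLH was 0.20, without a call, against untreated wild type.

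Of 29 early zygotic patterning and cellularization genes, 19 did not pass the filter on low counts. The difference was higher for 3 and lower for 0 of the 10 tested, and the median Zld effect of the 10 was 1.62 and the median Twi effect -0.03. The posterior patterning gene cad had 2.28 and 2.28 CPM with Zld, 0.182 and 0.421 in its wild type, 0.520 and 0.560 with Twi, and 0.840 and 1.09 in wild type at 40 µM. Its difference was 3.82 ± 0.58 (adjusted p = 0.00292), and the call ended with all 18 libraries in the fit. Beside sisA and cad, hry had a difference of 0.46 (adjusted p = 0.0418), which did not remain and turned to -0.32 with untreated wild type as the control. In the neuroectoderm list, pyr was the only 1 of 8 tested genes with a called difference. The midline factor gene sim rose by 4.42 with Zld (adjusted p = 0.00378), to 3.58 and 2.72 CPM, with an uncalled difference of 3.84 (adjusted p = 0.0847).

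Of 23 plasmatocyte and basement membrane genes tested, the difference was lower for 6 and higher for 2, and 4 and 1 remained. Genes of perlecan and collagen IV had the higher effect with Twi, and the gene of the matrix protein papilin the lower. The perlecan gene trol (X, 2470460 to 2545427) had 1203 and 1104 CPM with Twi, 52.5 and 51.9 in its wild type, 187 and 206 with Zld, and 179 and 174 in wild type at 1000 µM. Its Twi effect was 4.44 ± 0.09 and its difference -4.19 ± 0.11 (adjusted p = 4.19e-07). The wild types differed by more than the replicate spread here, and setting both lines against untreated wild type gave a difference of -2.48. The 2 collagen IV genes, vkg and Col4a1, are neighbours on 2L. The gene vkg had 1956 and 1436 CPM with Twi, 434 and 265 in its wild type, 50.6 and 50.5 with Zld, and 113 and 110 in wild type at 1000 µM. Col4a1 had 2740 and 2028 CPM with Twi, 705 and 458 in its wild type, 75.9 and 75.1 with Zld, and 178 and 167 in wild type at 1000 µM. Each rose with Twi and fell with Zld, and the differences were -3.30 ± 0.35 and -3.11 ± 0.32 (adjusted p = 0.00152 and 0.00123). Their Zld effects of -1.05 ± 0.25 and -1.11 ± 0.23 each lost the call without either library of the induced Zld line or of wild type at 1000 µM.

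Of the 23 genes, Zld lowered 11 (10.8% of all genes tested) and raised 2 (13.2%), while Twi lowered 6 (6.65%) and raised 4 (8.13%). In the difference, the rest of the list did not move as one. The engulfment receptor gene drpr had a difference of -1.19 ± 0.12 (adjusted p = 0.000473), with 172 and 175 CPM with Zld against 227 and 226, and 326 and 276 with Twi against 163 and 154. The uninduced Zld line already had a mean of 209 CPM of drpr against 287 in untreated wild type. Ppn, the matrix protein papilin, had a difference of 1.02 ± 0.15 (adjusted p = 0.00246), since Twi lowered it from 82.6 and 91.3 CPM to 38.7 and 48.1 while Zld left it at 52.9 and 52.5 against 58.3 and 54.5. Hml fell with both factors, by 1.83 ± 0.10 with Zld and 2.89 ± 0.16 with Twi, from wild types that were themselves far apart, and its difference of 1.06 (adjusted p = 0.0089) did not remain. The phagocytic receptor gene eater fell with both, by 1.63 and 1.33, and its difference was not called (adjusted p = 0.441). Summed over the 10 plasmatocyte markers, levels were 2020 to 2354 CPM with Zld, 3393 to 3438 in its wild type, 4763 to 6383 with Twi and 1772 to 2636 in wild type at 40 µM, and the 2 collagens took the largest part of the sum in the Twi line. The part of cell state in these values was not tested.

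Epithelial polarity and adherens junction genes gave 5 higher and 0 lower of 17 tested, and 4 remained. The adhesion gene ed had 84.0 and 91.3 CPM with Zld against 65.1 and 69.2, and 8.42 and 9.22 with Twi against 17.2 and 15.4 (difference 1.39 ± 0.13, adjusted p = 0.000214). The Par3 gene baz had 102 and 105 CPM with Zld against 66.9 and 66.6, and 41.7 and 44.9 with Twi against 54.7 and 56.0 (difference 1.11 ± 0.10, adjusted p = 0.000155). The cadherin gene Cad87A differed by 0.93 ± 0.09 (adjusted p = 0.000292), and in these 3 genes Zld raised and Twi lowered the level. The Zld effect of ed (0.47) lost its call without replicate 1 of wild type at 1000 µM, without replicate 2 of the induced Zld line, and with untreated wild type as the control (0.14), and the Twi effect of Cad87A ended with that control (-0.04). The cadherin gene kug rose with Zld, was already higher in the uninduced Zld line (146 against 60.8 CPM), with a difference of 1.49 ± 0.22 (adjusted p = 0.00424). Its wild type libraries had 64.5 and 58.2 CPM at 1000 µM and 500 and 593 at 40 µM, and its difference turned to -1.71 with untreated wild type as the control.

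All 20 septate junction genes were tested, and Twi lowered 13 (6.65% of all genes tested were lowered by Twi) and raised 0 of them, while Zld lowered 5 (10.8% of all genes) and raised 0. At an unadjusted p under 0.05, edgeR gave 3 higher with Twi and 1 higher with Zld, and DESeq2 called 1 and 0. The difference was higher for 4 and lower for 3. Lac, an immunoglobulin-domain junction protein, had a difference of 0.70 ± 0.12 (adjusted p = 0.005) and l(2)gl, the cortical polarity protein, of 0.52 ± 0.09 (adjusted p = 0.0043), and in both Twi lowered the level and the Zld effect was not called. Atpalpha, the sodium pump subunit, had a difference of -0.95 ± 0.11 (adjusted p = 0.000751), with 415 and 434 CPM with Zld against 759 and 742. Fas3, a homophilic adhesion protein, had 2.23 and 2.07 CPM with Twi against 19.0 and 20.1, and 0.494 and 0.809 with Zld against 0.789 and 0.421. Its difference was 3.38 ± 0.48 (adjusted p = 0.00201), but wild type at 40 µM was the single group with a level above 3 CPM, and with untreated wild type as the control the difference was -1.66.

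Ecdysone response genes gave 5 higher and 2 lower of 16 tested. The early ecdysone factor gene br had 112 and 122 CPM with Zld against 76.0 and 72.5, and 19.3 and 22.6 with Twi against 35.6 and 37.5 (difference 1.57 ± 0.13, adjusted p = 0.000101). Zld raised it and Twi lowered it. Eip63E, a cyclin-dependent kinase gene, had a difference of -0.65 ± 0.10 (adjusted p = 0.00246), and Twi alone raised it. ImpL2, an insulin-binding protein, had 61.9% of its exonic bases in other genes, and its difference of 1.70 did not remain and turned to -0.16 with untreated wild type as the control.

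Apoptosis and DNA damage genes gave 4 higher and 2 lower of 19 tested. The cell death activator gene rpr had 17.8 and 14.4 CPM with Zld against 10.6 and 8.97, and 2.86 and 4.48 with Twi against 9.94 and 17.7 (difference 2.73 ± 0.43, adjusted p = 0.00546). The activator gene hid, on the same arm, had 95.6 and 91.8 CPM with Zld against 41.2 and 42, and 19.6 and 31.4 with Twi against 27.9 and 26.8 (difference 1.38 ± 0.25, adjusted p = 0.00852). For rpr the Twi effect was called (-1.91) and for hid the Zld effect (1.26). Debcl, a Bcl-2 family gene, had a difference of -1.06 ± 0.13 (adjusted p = 0.000815), with 129 and 114 CPM with Twi against 56.9 and 63.8.

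Of 17 cuticle and wound response genes tested, 9 rose with Zld, against 13.2% of all genes tested, and 6 with Twi, against 8.13%, and the difference was higher for 3 and lower for 2. The chitin synthase gene kkv had 4.32 and 4.27 CPM with Zld against 0.121 and 0.241, and 0.468 and 0.862 with Twi against 0.420 and 0.297 (difference 3.76 ± 0.68, adjusted p = 0.00712). Among 9 lamellocyte and crystal cell genes tested, with 2 higher and 1 lower, peb, a zinc finger factor, had 28.8 and 24.7 CPM with Zld against 3.95 and 2.83 and did not move with Twi beyond its error (difference 3.12 ± 0.34, adjusted p = 0.000561). The filamin gene cher differed by 1.06 ± 0.12 (adjusted p = 0.000561). Among 32 oxidative stress and glutathione genes, 4 were higher and 3 lower, and beside GstE1 the call of GstD5 remained (-1.08 ± 0.18, adjusted p = 0.00614). Among 15 immune genes tested, 1 was higher and 2 lower, and the receptor gene Tl differed by -0.62 ± 0.10 (adjusted p = 0.00454).

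Metal response genes, many of which respond to copper itself, gave 1 higher and 1 lower of 14 tested, and neither call remained. The metallothionein gene MtnA had 4654 and 4496 CPM with Zld against 8285 and 7453, and 533 and 570 with Twi against 853 and 819. It fell in both lines, by 0.69 ± 0.07 and 0.63 ± 0.07, and the difference of -0.07 ± 0.10 was not called (adjusted p = 0.703). MtnE had 71.2 and 80.7 CPM with Zld, 83.3 and 83.3 in its wild type, 0.623 and 0.517 with Twi, and 1.15 and 1.19 in wild type at 40 µM. Heat shock and chaperone genes gave 1 higher and 0 lower of 19, DNA replication and cell cycle genes 0 higher and 1 lower of 30, germline and ovarian soma genes 3 higher and 1 lower of 16, and fat body genes 2 higher and 2 lower of 8. Of these, only the piRNA gene del remained called, with a difference of 0.97 ± 0.11 (adjusted p = 0.000561) that turned to -0.38 against untreated wild type. The uninduced Zld line already had a mean of 221 CPM of del, against 127 in untreated wild type. In the list of neuron and neuroblast genes, edgeR called 0 of 9 tested in the difference, in the Zld effect or in the Twi effect, as did DESeq2. At an unadjusted p under 0.05 the edgeR counts were 0, 3 and 3, the last 2 all higher.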

How the data were processed

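RNA-seq libraries were made from poly-A RNA with the TruSeq kit v2, which does not mark strand, so a gene and its antisense partner cannot be told apart. The authors deposited raw read counts per gene, and the deposited tables also give gene length, which was not used in any test. The build dm6 and the tools HISAT2 2.1.0, featureCounts of Subread 2.0 and DESeq2 are named per the submitters' processing notes; the annotation and the handling of shared reads are not given in the sources used here. Of 17609 gene identifiers, 17561 matched the dm6 annotation. CPM used each library's total count. The 8 libraries were fitted with edgeR 4.0.16 (R 4.3.3; TMM factors, filterByExpr, robust quasi-likelihood F test), with Benjamini-Hochberg adjustment over 9216 genes and a threshold of 0.05. SE was the size of the log2 value divided by the square root of F, and intervals are 95%. The procedure was tested on simulated data.

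Genes named were zld and twi, the 12 largest called differences in each direction, the 6 largest in each opposite orientation, the 5 in each shared direction with the largest smaller effect, and up to 4 called members per list. Candidates outside the lists had a group mean of at least 5 CPM and under 10% of exonic bases in other genes. Hml, Mhc, T48, sna, Mef2, dpp, sim, eater, MtnA, MtnE, Debcl, Lac, l(2)gl, Eip63E, RpS10a and other list members beyond the first 4 were chosen after their values were seen. The comparison, the members and the 24 lists were chosen with earlier results of these data known. Alternatives were DESeq2 1.42.0, RLE factors, no filter, all 18 libraries, replicate blocks, untreated wild type as control, and each library left out. A fit of the Zld line against wild type without CuSO4, with these 4 libraries added to the 8, was chosen after seeing the data.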

Additional observations from a re-analysis of the deposited data

Results flagged for a closer look

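The effects of the factors went in opposite directions, with the difference itself called by edgeR, for 75 genes that rose with Zld and fell with Twi and for 84 genes that fell with Zld and rose with Twi. Among genes that rose with Zld, 6.16% fell with Twi, against 6.65% of all genes tested. Among genes that fell with Zld, 8.43% rose with Twi, against 8.13% of all genes tested.

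The Zld line without CuSO4 already held zld RNA, at 214 and 306 CPM (mean 260), against 16 and 1.51 CPM in untreated wild type. The 2 untreated wild type libraries differed widely from each other in this gene.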

How the results depend on the processing

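Calls of the difference numbered 1283 with DESeq2, 1436 with RLE factors, 1665 without a filter and 2011 with all 18 libraries, against 1408; none of the 1408 was called in the opposite direction in these fits. Leaving out 1 library moved the count from 599 to 2500 for the difference, 683 to 3275 for the Zld effect, 800 to 1891 for the Twi effect and 2413 to 4593 for the wild types against each other. The cause was not tested.

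Same-numbered libraries deviated together for the Twi line and its wild type (correlation 0.61 over 7303 genes), weakly for the Zld line and its wild type (0.129), and with negative values for the Zld line against the Twi line (-0.288) and against wild type at 40 µM (-0.314), so the numbers are not established as pairs. With the replicate block, 1422 genes were called in the difference, 2312 in the Zld effect and 1390 in the Twi effect. With a replicate block within each dose, chosen after seeing the data, the counts were 2993, 3803 and 2727.

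With untreated wild type as the control, 4691, 4498 and 5101 genes were called in the difference, the Zld effect and the Twi effect. In the difference that control cancels, which leaves a direct comparison of the induced lines. The gap between the 2 copper-treated wild types is then no longer taken off. What makes the wild types differ was not tested. Untreated wild type as the control turned the sign of these log2 values. For the difference, they became 1.48 for Syn, 4.39 for Sr-CI, -0.86 for Cyp6a8, -0.32 for hry, 0.48 for rols, 0.45 for Mlp60A, 0.89 for tok, 0.42 for Pu, -1.66 for Fas3, -1.71 for kug, 0.63 for Cyp9f2, -0.16 for ImpL2, -2.05 for bgcn, -0.38 for del, -1.38 for tud and -0.91 for Lsd-1. For the Zld effect, they became -1.92 for AdamTS-B, -0.90 for trol, 9.10 for MtnE, 0.68 for foi, 1.83 for GstD5 and 0.27 for Debcl. For the Twi effect, they became -3.29 for zld, 1.41 for zye, 0.57 for hry, -0.76 for rols, 1.81 for Fas3, -0.62 for Cyp9f2, 1.97 for MtnE, 2.01 for ImpL2, 0.45 for E2f1, 2.31 for bgcn and 1.12 for del.

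With 2 libraries per group, no test of a library that stands apart within its group was possible. Changes near the median SE of 0.16 on the log2 scale, and genes near 3 counts per library, are at the limit of this depth. In the comparison of the Zld line with wild type without CuSO4, the 4 libraries fitted alone gave 492 genes higher and 444 lower.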
